A study of Mus musculus with 2 samples.

Results

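The genes described here are the heat shock, DnaJ and chaperonin genes of the mouse, 87 of the 55536 Ensembl genes and of the 21901 genes with a protein-coding transcript in the deposited tables. They were chosen by name and not by value: symbols that begin with Hspa, Hspb, Hspd, Hspe, Hsph, Hsp9, Dnaj or Cct and a digit, together with Tcp1, Unc45a, Unc45b, Cryab and Bag3, where the gene has a transcript labelled protein-coding. By name and role they comprised 9 small heat shock genes, 2 Unc45 genes, Bag3, 3 Hsp90 genes, and 14 Hsp70 and Hsp110 genes. There were also 2 mitochondrial chaperonin genes, 9 genes of the cytosolic chaperonin (CCT) and 45 DnaJ genes. The remaining members, Hspbp1 and Hspbap1, carry the letters Hspb but are not small heat shock genes. Cct6a, the gene of another CCT subunit, is labelled a processed transcript in the annotation and so is not among the 87, and its values are given beside them.

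The samples were the gastrocnemius, a muscle of the calf, taken from female B6CASTF1/J mice at 4 days of age, the F1 hybrid of C57BL/6J and CAST/EiJ. There was 1 group and 1 total RNA library from each of 2 biological replicates, on animals numbered 3 and 4, with 300 ng of RNA per library. Both libraries carried the same donor record, so whether the animals were litter mates is not known, and the design held no treatment, other age, other sex or other tissue. Values are therefore given per library, with the mean ± SD over n = 2 as a measure of spread, and the exact permutation test of 2 values against 2 could not go below p = 0.33.

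Chaperones bind unfolded or newly made proteins and keep them from aggregating. Hsp70 proteins bind short exposed stretches in a cycle driven by ATP, J-domain (DnaJ) proteins bring clients to Hsp70 and start that cycle, Hsp110 proteins exchange its nucleotide, Hsp90 finishes the folding of kinases and receptors, and the ring-shaped CCT folds actin and tubulin. Small heat shock proteins hold partly unfolded proteins without ATP and are abundant in muscle, where αB-crystallin (Cryab) binds desmin and titin, while Unc45b works with Hsp90 to fold the myosin motor domain.

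Gene counts and spike-in counts together came to 30961087 in replicate 1 and 36246031 in replicate 2, of which the chaperone genes held 176604 and 215852. The label of the tissue was borne out by muscle fibre markers, since Acta1, the skeletal muscle actin, reached 11663 and 13964 TPM, a level scaled for transcript length and library size, and the lowest of the 5 fibre markers, Tnnt3, 3431 and 3813 TPM. The libraries were not alike in other cell types. Replicate 1 was higher in the summed TPM of 4 red cell markers (1222 against 228), 4 neutrophil markers (67.7 against 12.8), 4 bone markers (28.5 against 1.07) and 4 tendon markers (229 against 107), and replicate 2 in 4 liver markers (98.6 against 9.74). In whole tissue, fewer cells of a type and less RNA per cell cannot be told apart.

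Control sequences are shown first for the genes whose start-site windows carried a chaperone element, because these elements define the textbook programmes to which the genes belong. RefSeq's table of promoter windows (GRCm38.p6, the mm10 build) covered 71 of the 87 genes, with 250 bases before and 50 bases after each start. Cct4, Cryab, Dnajc2, Dnajc5, Dnajc5b, Dnajc11, Dnajc12, Dnajc18, Dnajc22, Dnajc30, Hsp90aa1, Hsp90ab1, Hspa8, Hspa9, Hspa13 and Hspb2 had none. The endoplasmic reticulum (ER) stress element was searched on both strands as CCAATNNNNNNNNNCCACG or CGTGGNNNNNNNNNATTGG. It occurred in 0.119% of all 32851 windows and in 3 of the 7 ER chaperone genes with a window, which were Hspa5, Hsp90b1 and Dnajc3. The 4 matches follow, with the element in capitals, each read 5′ to 3′ on the strand of its gene.
Hspa5, chr2:34772000-34772068, plus strand: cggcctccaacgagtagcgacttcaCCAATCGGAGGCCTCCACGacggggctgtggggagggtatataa
Hsp90b1, chr10:86705613-86705681, minus strand: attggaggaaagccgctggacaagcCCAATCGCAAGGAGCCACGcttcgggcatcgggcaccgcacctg
Hsp90b1, chr10:86705508-86705576, minus strand: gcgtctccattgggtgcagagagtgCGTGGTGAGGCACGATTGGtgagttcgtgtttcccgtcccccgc
Dnajc3, chr14:118937802-118937870, plus strand: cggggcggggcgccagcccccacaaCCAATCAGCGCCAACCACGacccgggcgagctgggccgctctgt

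The heat shock element, the site class bound by heat shock factors, was searched as GAANNTTCNNGAA or TTCNNGAANNTTC, which are each other's reverse complement. It occurred in 0.603% of all windows and in those of 4 genes here, Hspd1, Hspe1, Dnajb6 and Hsph1. Hspd1 and Hspe1, the chaperonin of the mitochondrial matrix and its lid, lie head to head on chromosome 1 and overlap by 112 bases, so the same 2 overlapping matches served both genes. The match of Hsph1 lay downstream of its start and is not shown. In the other 2 stretches the capitals mark the element.
Hspe1, shared with Hspd1, chr1:55088034-55088101, plus strand: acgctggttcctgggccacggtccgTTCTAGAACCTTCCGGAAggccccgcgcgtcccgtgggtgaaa
Dnajb6, chr5:29735827-29735889, plus strand: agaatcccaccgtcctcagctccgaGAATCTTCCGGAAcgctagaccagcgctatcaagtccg

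Of the 7 muscle small heat shock genes, 5 had a window. None of the 5 held the heat shock element or the E-box CAGCTG, a palindrome that is read the same on both strands and that occurred in 16.3% of all windows and in 13 of the 71 genes. A match is a description of these letters of the reference assembly, and the CAST/EiJ alleles of the hybrid animals were not examined. A window without a match says nothing about the factor.

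Most of the chaperone genes were expressed in the young muscle. At a threshold of 1 TPM in both libraries, 76 of the 87 were detected, against 55.0% of the genes with a protein-coding transcript. The median of the detected chaperone genes was 19.4 and 19.2 TPM in replicates 1 and 2, and that of all detected protein-coding genes was 10.1 and 9.87 TPM. A mean of 100 TPM or more was reached by 7 of them (Hspa8, Hsp90ab1, Cryab, Hspb1, Hspa5, Tcp1 and Hsp90b1), where 4.64% of detected protein-coding genes did so. Together the 87 genes held 0.858% and 0.891% of all protein-coding TPM. The 2 leading genes took 25.5% and 26.9% of this sum, and the 10 leading genes 54.5% and 55.7%.

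**Figure D1:**
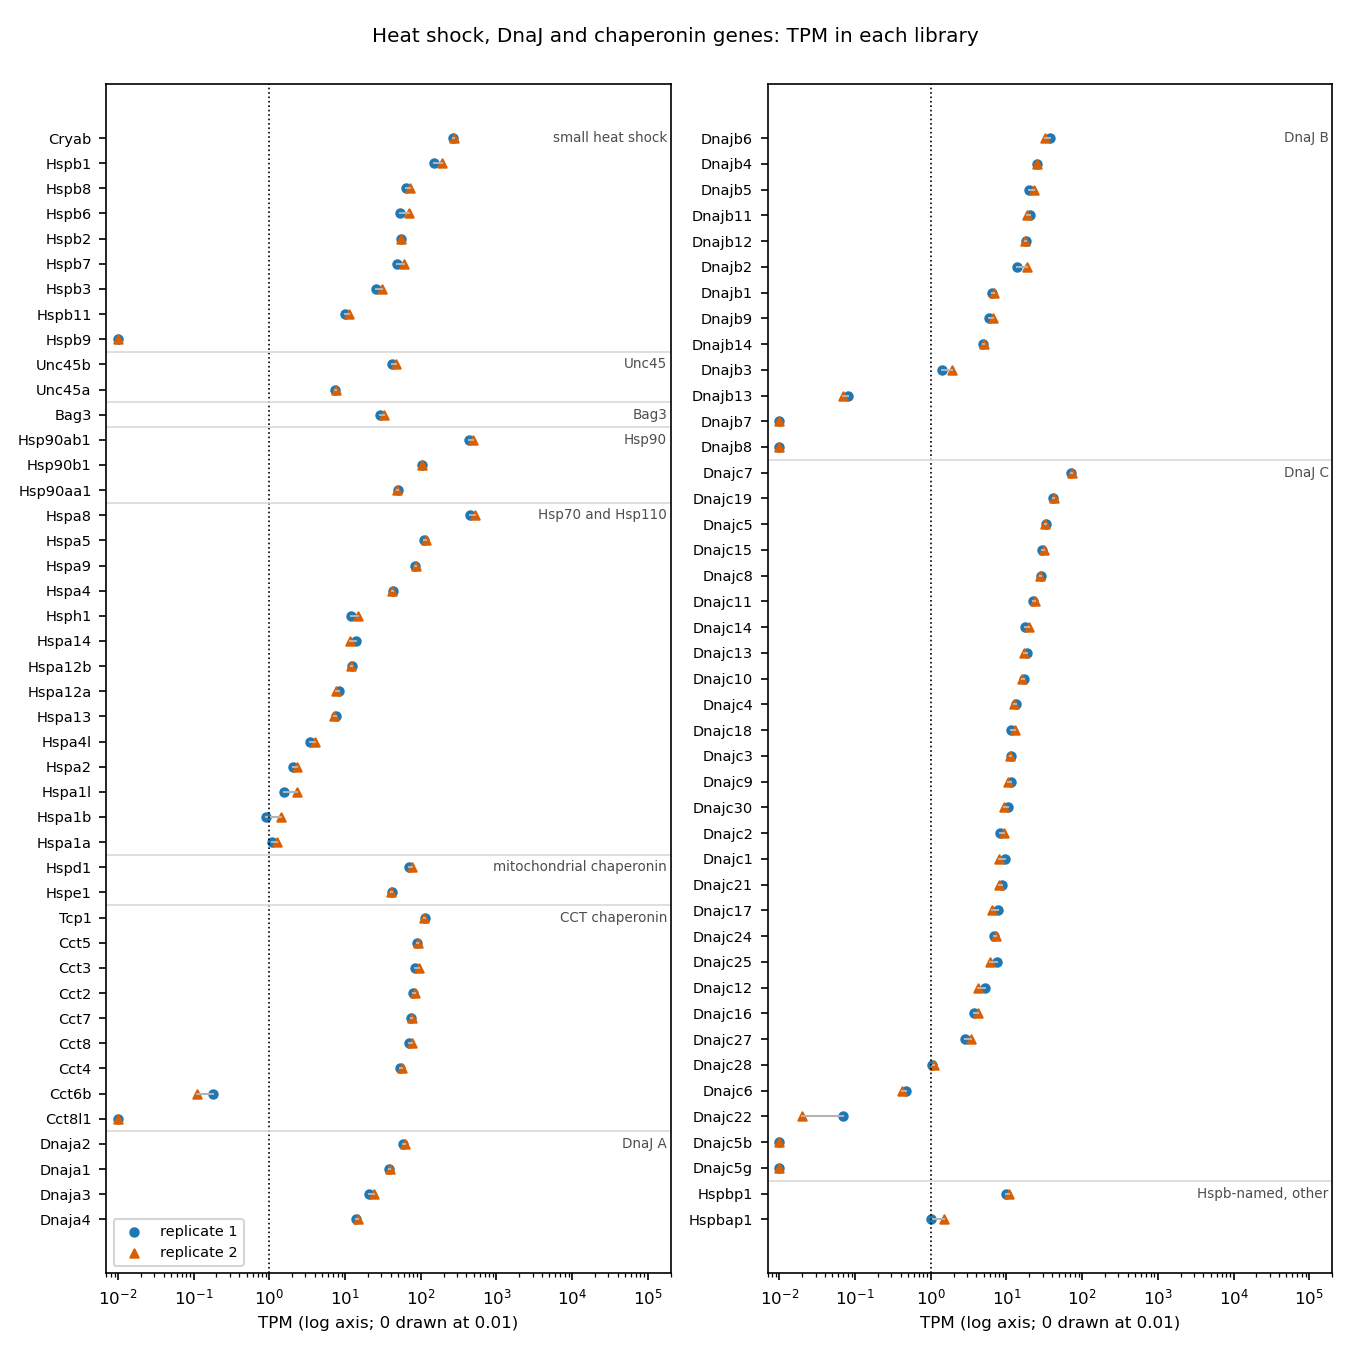
TPM of each of the 87 genes in replicate 1 (circles) and replicate 2 (triangles), grouped by class and ordered by mean within it, on a log axis where 0 is drawn at 0.01 and the dotted line marks 1 TPM. The CCT subunits of the general complex lie in a narrow band between 52.7 and 115 TPM, whereas the Hsp70 class runs from near 1 TPM to 522 TPM.

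By gene total, the small heat shock genes were led by Cryab, at 265 and 279 TPM in replicates 1 and 2. Next was Hspb1 (Hsp27, which binds actin filaments), at 151 and 193 TPM. A middle group followed. Hspb8, the partner of Bag3 in the disposal of damaged filament proteins, had 63.5 and 72.5 TPM, and Hspb6 (Hsp20) had 53.8 and 70.2 TPM. Hspb2, which forms complexes with Hspb3, had 54.9 and 54.1 TPM, and Hspb7, which binds filamin C, had 49.0 and 59.5 TPM. Hspb6 was above Hspb7 in both libraries. Hspb2 stood above both of these genes in replicate 1 and below both in replicate 2, so its place is not settled by these libraries. Hspb3 stood lowest of the 7, at 25.3 and 30.6 TPM, below every other one in both libraries. The total of Cryab includes Cryab-204, a transcript labelled as a retained intron, with 123 and 139 TPM. Its main coding transcript, Cryab-205, had 120 and 111 TPM, against 150 and 192 TPM for the coding Hspb1-201. The order of Cryab and Hspb1 by coding transcripts is therefore not settled.

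Cryab and Hspb1 together made up 62.5% ± 0.457 (SD, n = 2) of the summed TPM of these 7 genes. By expected counts, which are not divided by length, the same share was 43.8%, because the longer Hspb7 and Hspb8 then weigh more. Hspb11, named with the family but a component of intraflagellar transport in cilia, was detected at 9.84 and 11.2 TPM. Hspb9, a testis gene, had no count in either library, where a floor of 3 counts corresponds to 0.182 and 0.160 TPM.

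Cryab and Hspb2 lie head to head on chromosome 9 (Cryab at 50751325-50756636 on the plus strand, Hspb2 at 50751078-50752354 on the minus strand of mm10) and their annotated spans overlap by 1030 bases. The strand setting of the counting was not given in the sources used here, and how reads in the overlap were split between the pair is uncertain. Cryab exceeded Hspb2 by 4.83-fold and 5.15-fold in TPM.

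Against these genes stood a list of 18 general chaperone genes: the Hsp90 genes, Hspa4, Hspa5, Hspa8, Hspa9, Hsph1, the mitochondrial chaperonin and the 8 CCT subunits, Cct6a included. Their median was 75.9 and 80.4 TPM (mean 78.1 ± 3.16, SD, n = 2), and that of the 7 muscle small heat shock genes 54.9 and 70.2 TPM (mean 62.6 ± 10.8). The ratio of the medians was 0.723 in replicate 1 and 0.874 in replicate 2. The muscle small heat shock genes were thus below the general ones by their medians in both libraries, but their summed level of 663 and 758 TPM was carried by genes found among the most abundant chaperones of the tissue, with Cryab and Hspb1 next after Hspa8 and Hsp90ab1 among the 87.

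The Unc45 pair was uneven. Unc45b, the myosin chaperone of striated muscle, had 41.1 and 47.7 TPM, and Unc45a, the form of general tissues, 7.45 and 7.49 TPM. Unc45b therefore held 84.6% and 86.4% of the pair's TPM (mean 85.5% ± 1.25, SD, n = 2), an excess of 5.51-fold and 6.36-fold that is larger than the spread of either gene between libraries. Smyd1, a methyltransferase that binds Unc45b and Hsp90 during myosin assembly, had 55.2 and 62.9 TPM, so that Unc45b was at 0.745 and 0.758 of its level. Unc45b lies at chr11:82910550-82943403 on the plus strand and overlaps antisense genes over 6.14% of the 100-base stretches of its leading transcript.

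Bag3, which links Hsp70 to Hspb8 in filament turnover, was found at 29.0 and 32.5 TPM. Hspb8 exceeded it by 2.19-fold and 2.23-fold. Their muscle clients were far more abundant. Des (desmin) had 606 and 717 TPM, Flnc (filamin C) 162 and 201, and the cytoplasmic actins Actb and Actg1 1109 and 1081 and 317 and 332 TPM. All 8 genes of this list of clients and partners were detected.

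Among the Hsp90 genes, the constitutive cytosolic form Hsp90ab1 had 431 and 486 TPM and the stress-inducible form Hsp90aa1 50.4 and 49.1 TPM. Hsp90ab1 held 90.2% ± 0.929 (SD, n = 2) of the cytosolic pair, 8.54 and 9.91 times the level of Hsp90aa1. Hsp90b1 (Grp94), the ER form, was at 104.4 and 103.5 TPM. The leading transcript of Hsp90aa1 shared 53.2% of its 100-base stretches with 3 pseudogenes, which took at most 97.0 counts each.

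All 9 Hsp90 co-chaperones listed were detected. Cdc37, which brings kinases to Hsp90, had 55.4 and 61.9 TPM, and Stip1 (Hop), which joins Hsp70 to Hsp90, had 44.7 and 47.1 TPM. Ptges3 (p23) had 41.1 and 41.8 TPM. Fkbp5, a glucocorticoid-induced co-chaperone, was the lowest of the list, at 6.42 and 4.45 TPM.

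The cytosolic Hsp70 pool was almost wholly Hspa8 (Hsc70), the constitutive form, at 452 and 522 TPM, which was 98.7% ± 0.110 (SD, n = 2) of the summed TPM of Hspa8, Hspa1a, Hspa1b, Hspa1l and Hspa2. The heat-inducible Hspa1a had 1.09 and 1.25 TPM and its near-identical neighbour Hspa1b 0.91 and 1.43 TPM. Hspa1l, known from testis, had 1.57 and 2.35 TPM, and Hspa2, known from spermatocytes and from other tissues, 2.06 and 2.30 TPM. These 4 genes were each below 0.5% of the pool.

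Hspa1a, Hspa1b and Hspa1l sit together on chromosome 17. Hspa1b is 9951 bases from Hspa1a, and Hspa1a is 546 bases from Hspa1l on the opposite strand. Of the 100-base stretches of their leading transcripts, 56.5% (Hspa1a), 49.9% (Hspa1b) and 70.8% (Hspa1l) occur in another gene, so how counts were divided among the 3 is uncertain. Hspa1b fell under the threshold of detection only in replicate 1.

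Whether Hspa8 or Hsp90ab1 was the most abundant chaperone transcript could not be settled. In TPM, Hspa8 was 1.05 and 1.07 times Hsp90ab1. In the other deposited quantification it was 0.891 and 1.09 times, and in expected counts 0.70 and 0.737 times. Hspa8 shares 73.9% of the 100-base stretches of its leading transcript with 9 other genes, of which the processed pseudogene Gm15459 on chromosome 5 held 5641 and 6861 counts against 19778 and 25737 for Hspa8 itself. That was 21.6% ± 0.809 (SD, n = 2) of the 2 genes' counts.

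A smaller ambiguity of this kind touched Hspb1. It shares 56.3% of its stretches with Hsp25-ps1, which held 349 and 435 counts beside 3398 and 4919 for Hspb1. Of all 87 genes, 57 shared no such stretch with another gene and 16 shared more than 20%.

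**Figure D2:**
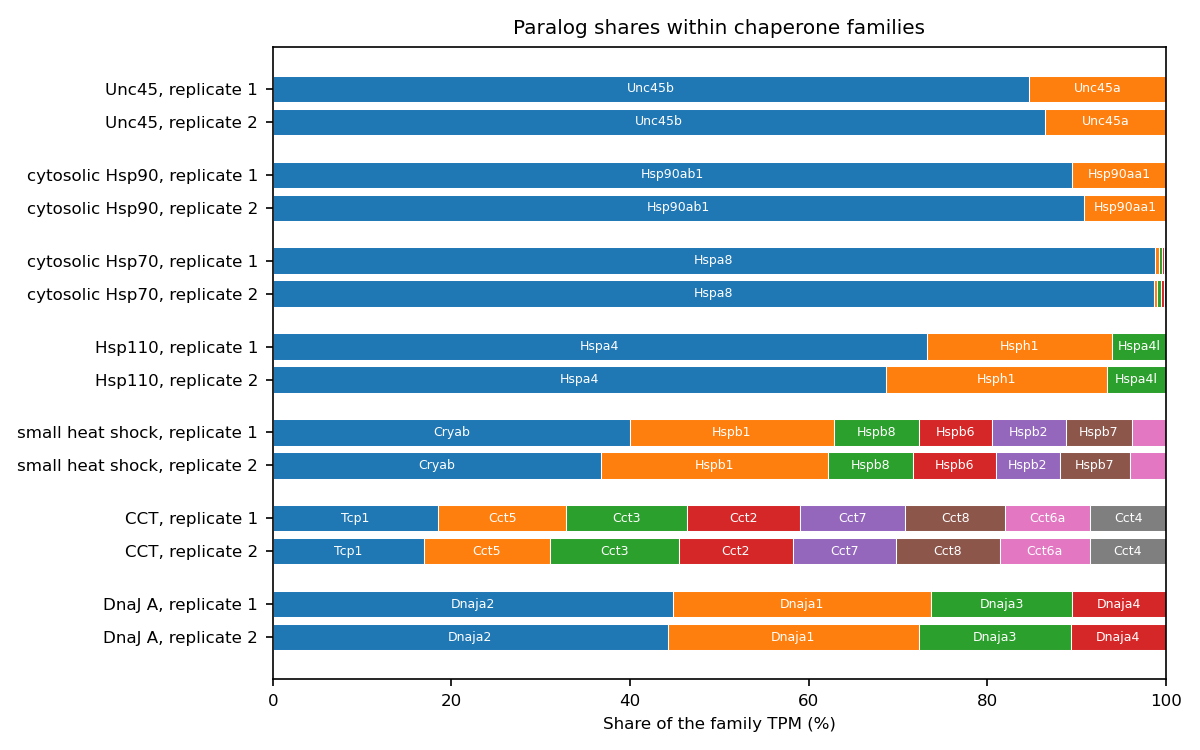
Share of each gene in the summed TPM of its family (percent, horizontal axis) in replicates 1 and 2, with 1 stacked bar per family and library. Hspa8, Hsp90ab1 and Unc45b fill most of their bars at 98.7%, 90.2% and 85.5% on average, while the 8 CCT subunits, Cct6a included, divide theirs into like parts.

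The Hsp110 genes, the nucleotide exchange factors of Hsp70, were led by Hspa4 at 42.4 and 41.3 TPM. Hsph1, which is heat-inducible, had 12.03 and 14.9 TPM and Hspa4l 3.48 and 3.97 TPM. Among the distant relatives of Hsp70, Hspa14, a ribosome-bound form, had 14 and 11.7 TPM. The divergent Hspa12b had 12.5 and 11.8 TPM, and Hspa12a 8.37 and 7.59 TPM.

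Other co-chaperones of Hsp70 were present throughout, with 11 of the 11 listed genes detected. The most abundant were Bag6 (97.96 and 102 TPM), Bag1 (69.7 and 73.3), St13, also called Hip (65.3 and 61.9), and the ubiquitin ligase Stub1, or CHIP (48.1 and 51.6). Hspbp1, a member by name that also acts on Hsp70 as an exchange factor, had 9.72 and 10.7 TPM. Hspbap1, a protein that binds Hspb1, had 1.01 and 1.51 TPM and so lay just inside the threshold.

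The 8 subunits of CCT are present once in each of its rings, and their transcripts were of similar level. Tcp1 (subunit alpha) was highest at 115 and 112 TPM. Cct5 had 89.4 and 93.1 TPM, Cct3 84.3 and 95.7, Cct2 78.5 and 83.9, Cct7 73.3 and 76.8, and Cct8 69.5 and 76.4. Cct4 was lowest at 52.7 and 56.4 TPM, with Cct6a, outside the 87, next at 59.3 and 66.7 TPM. The highest was 2.18 and 1.99 times the lowest (mean 2.08 ± 0.139, SD, n = 2), and Cct3 and Cct5 changed places between libraries. In the other quantification Cct3 (99.1 and 104 TPM) stood beside Cct4 (101 and 97.4 TPM) at the low end, so the place of Cct3 is not settled.

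The germ cell paralog Cct6b had only 9 and 6 counts, or 0.18 and 0.11 TPM, and Cct8l1 had none. Prefoldin, which hands actin and tubulin to CCT, was detected in all 6 of its genes, with Pfdn5 highest at 134 TPM in both libraries, followed by Pfdn1 (45.5 and 49.8) and Pfdn2 (41.1 and 37.8), and with Pfdn4 lowest at 9.48 and 8.76 TPM.

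In mitochondria, Hspa9 (mortalin), the matrix Hsp70, had 84.6 and 87.7 TPM and the chaperonin Hspd1 (Hsp60) 70.0 and 75.6 TPM. Its lid Hspe1 (Hsp10) had 42.3 and 41.1 TPM. Hspd1 exceeded Hspe1 by 1.66-fold and 1.84-fold in TPM but by 5.61-fold and 6.30-fold in counts, which are not divided by length.

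All 8 genes of the mitochondrial list were detected. Dnajc19, which is tied to the import motor and to prohibitins of the inner membrane, had 41.3 and 41.9 TPM, and Dnajc15, its relative, had 29.2 and 31.3 TPM. Dnajc11, of the cristae-organising complex, had 22.1 and 23.5 TPM. Dnaja3 (Tid1), the J-domain protein of Hspa9, had 20.7 and 23.9 TPM. Dnajc30 had 10.4 and 9.19 TPM. The exchange factors of Hspa9 had 12.4 and 12.2 TPM (Grpel1) and 3.77 and 3.89 TPM (Grpel2).

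In the ER, Hspa5 (BiP), the Hsp70 of that compartment, had 110.0 and 117 TPM, much as Hsp90b1 did. These are the genes that carry the ER stress elements printed above, with Dnajc3. Dnajc3 (p58IPK) itself was at 11.4 and 11.1 TPM, below the other J-domain proteins Dnajb11 (20.3 and 18.6) and Dnajc10 (17.3 and 16.3), neither of which held an element. Dnajc1 had 9.44 and 7.94 TPM and Dnajb9, a strongly stress-induced gene, 5.91 and 6.65 TPM. Hspa13 had 7.51 and 7.04 TPM.

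The element thus marked both the highest genes of this list and one of its lower ones. Hspa5 exceeded Dnajb9 by 18.6-fold and 17.6-fold in TPM. Of the lectins and disulfide isomerases, P4hb (206 and 204 TPM) and Calr (140 and 142) stood above Hspa5, and Canx (87.9 and 86.8) and Pdia3 (82.8 and 80.9) below it.

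The cytosolic DnaJ genes were led by Dnajc7 (Tpr2), which works with both Hsp70 and Hsp90, at 71.7 and 74.2 TPM, and by Dnaja2 at 58.6 and 61.9 TPM. Dnaja1 had 37.9 and 39.3 TPM. Dnajb6, which suppresses aggregation and whose mutation causes a limb-girdle muscular dystrophy, had 37.98 and 31.9 TPM. Dnajc5 (cysteine string protein), of synaptic vesicles, had 33.7 and 32.7 TPM, and Dnajc8, associated with splicing, 28.6 and 27.6 TPM.

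A lower tier held Dnajb4 (25.4 and 25.2), Dnajb5 (20.1 and 23.2) and Dnajb12 (18.1 and 17.4), with Dnajc14, Dnajc13, Dnajb2 and Dnaja4 between 13.7 and 19.6 TPM. Dnajb6 exceeded Dnajb1 (Hsp40), the canonical heat-inducible J-domain protein, by 5.91-fold and 4.66-fold, and Dnajb1 had 6.43 and 6.84 TPM. By class, 4 of 4 DnaJ A genes were detected, 10 of 13 DnaJ B genes and 24 of 28 DnaJ C genes.

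The members that heat and other stress are known to induce were spread over the whole range. Of the 11 genes in this list, Cryab and Hspb1 were among the highest chaperones, Hspd1, Hsp90aa1, Hspe1 and Bag3 lay between 29.0 and 75.6 TPM, Dnaja4, Hsph1 and Dnajb1 between 6.43 and 14.9, and Hspa1a and Hspa1b near 1 TPM. Of the heat shock factors, Hsf1 (17.2 and 17.1 TPM) and Hsf2 (14.4 and 14.7) were detected, while Hsf4 (0.28 and 0.08) and Hsf5 (0.08 and 0.04) were not. Hsbp1, which binds Hsf1, had 71.7 and 77.1 TPM.

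Of the 11 undetected genes, 7 were on the list of genes known from germ cells. With no count in either library, where 19.9% of protein-coding genes had none, stood 6 of the 87: Hspb9, Cct8l1, Dnajb7, Dnajb8, Dnajc5b and Dnajc5g. A floor of 3 counts corresponds to 0.0507 to 0.182 TPM for these genes, and the other quantification gave Dnajb8 0.148 TPM in replicate 2. Dnajc22 (0.07 and 0.02 TPM), Dnajb13 of sperm flagella (0.08 and 0.07), Cct6b and the neuronal clathrin uncoating factor Dnajc6 (0.47 and 0.42) had some counts but stayed under 1 TPM in both libraries. Of the 9 genes of the germ cell list 2 were detected, Hspa1l and Dnajb3 (1.39 and 1.89 TPM), and Hspa1l is one of the genes with shared sequence. Hspa2 is not on that list. Just inside the threshold lay Dnajc28 (1.04 and 1.10) beside Hspa1a and Hspbap1, and just outside it Hspa1b.

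The 2 libraries were about as close for these genes as for all genes. At a mean count of 100 or more stood 74 of them, and for these the log2 ratio of replicate 2 to replicate 1 was taken from counts scaled by the trimmed mean of M values over all genes. With 1 library against 1, a ratio has no test. Taken without its sign, the ratio had a median of 0.119 for the 74 genes and 0.115 for all genes at that depth. None of the 74 was over 2-fold apart, where 0.718% of the 12257 genes at that depth were, and 1 was over 0.5 on the log2 scale, where 3.68% were. That gene was higher in replicate 2, as 1.27% of genes were by this size, and no chaperone gene was lower by it, against 2.41%. Replicate 2 was the higher in 57 and the lower in 17, against 55.3% of all such genes that were higher, and the median log2 ratio was 0.09 against 0.02 for all genes. Scaling by library size alone left 46 higher and 28 lower, where 43.5% of all genes were higher, with medians of 0.04 and -0.03. In TPM 47 were higher and 27 lower, where 49.8% of all genes were higher. When ERCC spike-in counts set the scale, the direction turned: 26 were higher and 48 lower, where 22.9% of all genes were higher, and the medians became -0.049 and -0.12. The median of these genes was thus above that of all genes on both scales, but its sign was not kept.

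The gene over 0.5 was Hspa1l, with 104 counts in replicate 1 and 177 in replicate 2 and a log2 ratio of 0.58 (95% interval 0.23 to 0.95, counting error only). Its neighbour Hspa1b had 69.1 and 123 counts and so missed the depth required. After Hspa1l the highest ratios belonged to Hspb6 (0.38), Dnajb2 (0.36), Hspb1 (0.36), Hspb7 (0.28) and Hspb3 (0.28). Of these 5, Dnajb2, a J-domain protein known for clearing ubiquitinated clients, was the one outside the small heat shock class. The lowest were Dnajc17 (-0.22), Dnajc9 (-0.19), a histone co-chaperone, Dnajc30 (-0.18), Dnajc25 (-0.15), Hspa14 (-0.13) and Dnajb11 (-0.12). The counting intervals of these lowest 6 all reached above 0.

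All 7 muscle small heat shock genes were higher in replicate 2, where 55.3% of all genes at that depth were. Their median log2 ratio was 0.28, with a range from 0.01 (Hspb2) to 0.38. With spike-in scaling the median was 0.14, and Cryab (-0.08) and Hspb2 (-0.13) were then lower in replicate 2. With library size alone, Hspb2 (-0.04) was lower and the other 6 were higher. Muscle fibre markers moved the same way: 5 of 5 were higher in replicate 2, by 0.16 to 0.34 with a median of 0.26, their sum went from 33628 to 39945 TPM, and with spike-in scaling the median was 0.12. None of these 5 muscle fibre markers was at 0 in either library. Unc45b (0.22), Smyd1 (0.21), Des (0.25) and Flnc (0.32) lay in the same range. The part of muscle fibre content in these ratios was not tested.

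Of all genes at that depth, 55.3% were higher in replicate 2, or 43.5% with library size alone and 22.9% with spike-in scaling. The general chaperones were higher in 17 of 18 cases, with a median of 0.09. The CCT genes at that depth were higher in 7 of 7, with the same median and a range from 0.01 to 0.13. With library size alone 14 of the 18 general chaperones and 6 of the 7 CCT genes were higher, and with spike-in scaling 3 of 18 and 0 of 7, with medians of -0.05 for both. The mitochondrial list was higher in 6 of 8 (median 0.08) and the ER list in 5 of 8 (median 0.02), which became -0.06 and -0.13 with spike-ins. By library size alone the ER median was -0.03. Unc45a was at -0.11, but its counting interval of -0.28 to 0.06 spanned 0 and its TPM was 7.45 and 7.49.

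The heat-inducible list was higher in 9 of its 10 genes with the required depth (median 0.13, or -0.01 with spike-ins), where 55.3% of all genes were. This list is not separate from those above. It shares Hspb1 and Cryab with the muscle small heat shock genes, and Hsp90aa1, Hsph1, Hspd1 and Hspe1 with the general chaperones. Beside it, the immediate early genes, known to respond quickly to stimuli, stood higher in 8 of 8 cases in replicate 2 (median 0.51). With spike-ins 6 of these 8 were higher, with a median of 0.37, where 22.9% of all genes were. Fosb (0.64 and 1.47 TPM), Fos (4.33 and 7.73) and Jun (12.6 and 21.1) had the highest ratios, at 1.39, 1.02 and 0.74. Their part in the ratios of the heat-inducible genes was not tested.

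**Figure D3:**
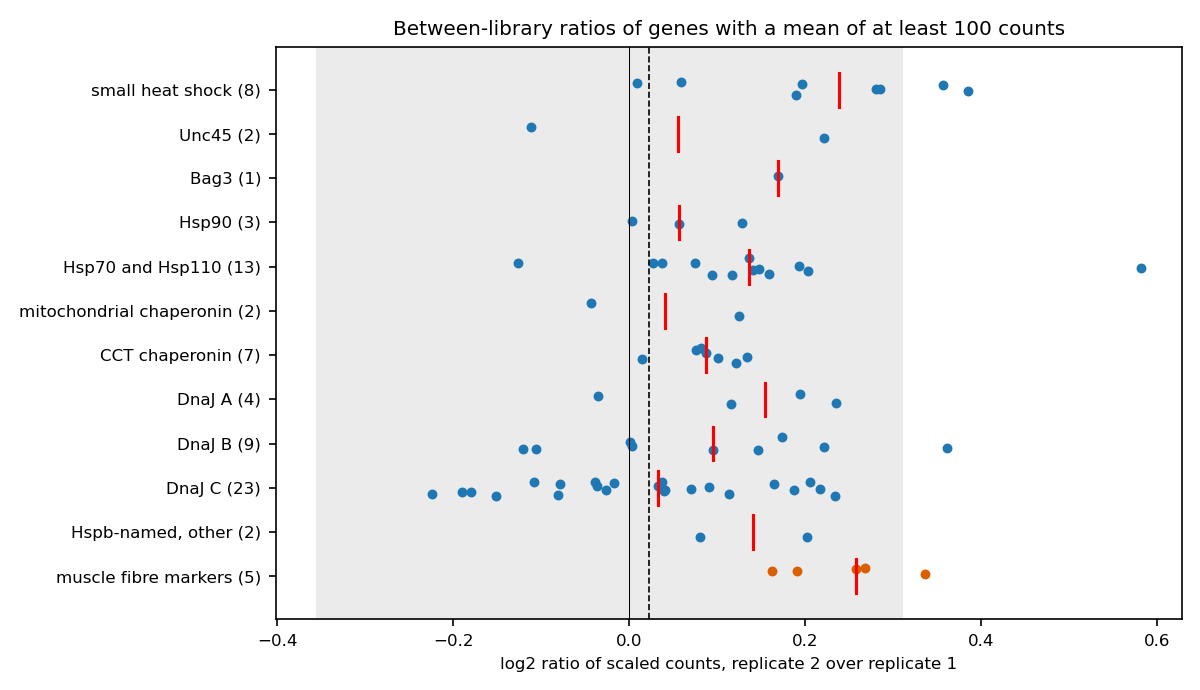
Log2 ratio of scaled counts, replicate 2 over replicate 1, for each gene with a mean of at least 100 counts, by class, with the number of genes in brackets, a red bar at each class median and the muscle fibre markers in orange. The dashed line marks the median of all 12257 genes (0.02) and the grey band spans their 5th to 95th percentile (-0.35 to 0.31). All but 4 chaperone genes (Hspa1l, Hspb6, Dnajb2 and Hspb1) lie inside the band.

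The genes also differed in which transcripts carried their TPM. Of the 71 genes examined at this level 60 were detected, and 53 of these have several annotated transcripts. Over these 53 genes the leading transcript held a median of 66.9% ± 3.56 (SD, n = 2) of the gene's TPM, and transcripts not labelled protein-coding held 12.8% ± 3.14. The leading transcript was the same in both deposited quantifications for 41 of the 53 genes and another for 12.

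In 4 genes a transcript not labelled protein-coding led by TPM in the main tables. For Cryab it was Cryab-204, labelled as a retained intron, with 46.5% and 49.7% of the gene's TPM, ahead of the coding Cryab-205 at 45.4% and 39.9%. In the other quantification Cryab-204 had 36.0% and 29.5% and Cryab-205 7.95% and 31.9%, so the order turned in replicate 2, and by counts Cryab-205 led with 50.8% against 37.8%. For Cct7 it was Cct7-202, labelled for nonsense-mediated decay, at 44.9% and 37.3%, and at 46.0% in the other quantification. By counts the coding Cct7-201 led it, with 44.1% against 34.9%. In Dnajc15, 97.1% ± 0.328 of the TPM lay on transcripts not labelled protein-coding, 98.6% in the other quantification and 69.8% by counts. Dnajc15-203 led there in TPM, at 60.2%.

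The fourth was Dnajc19, and here the 2 quantifications differed. Dnajc19-205, a retained intron transcript of 419 bases, had 60.9% ± 2.38 of the gene's TPM in the main tables and 0% in the other quantification, in which Dnajc19-204 led. Cct3 differed likewise, with 42.3% ± 2.82 of its TPM on retained intron transcripts against 3.29%.

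Hspa8 showed that even an abundant gene can be unsettled at this level. Hspa8-202, coding, led with 46.9% and 47.5%, but had 0.0690% on average in the other quantification, where Hspa8-201 held 70.0%. The level of Hspa5, in contrast, rested on the coding Hspa5-202 in both, at 90.6% ± 0.0295 and 75.6%. Of Dnajb6, the coding Dnajb6-201 had 32.2% and 41.5% and the coding Dnajb6-203 37.95% and 35.3%, so their order turned between libraries; by counts it was 58.3% against 31.2%. In 20 of the 53 genes more than 20% of the TPM was on transcripts not labelled protein-coding. That number was 23 in the other quantification and 11 by counts.

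**Figure D4:**
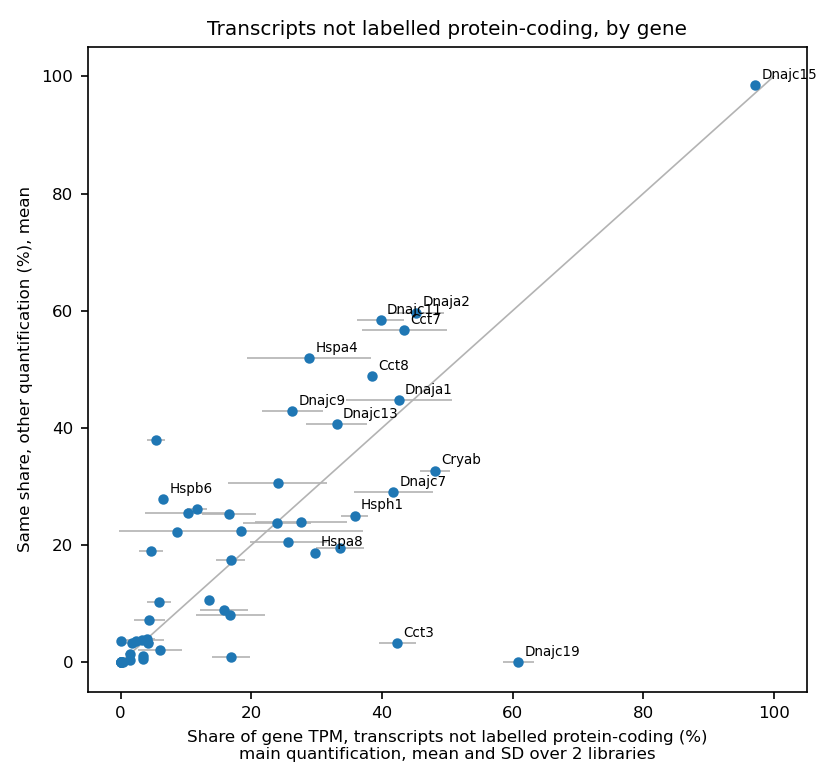
Share of each gene's TPM on transcripts not labelled protein-coding, in the main tables (horizontal axis, mean with SD over 2 libraries, percent) and in the other quantification (vertical axis, mean, percent), for the 53 detected genes with several transcripts. Points on the grey line have equal shares; Dnajc15 is near the top on both axes, while Dnajc19 and Cct3 lie far below the line at 60.9% against 0% and 42.3% against 3.29%.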

How the data were processed

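For each library the tables deposited by the authors hold expected counts, which are estimates and need not be whole, and TPM, per gene and per transcript. A transcript table of another quantification was summed per gene here. Per the file headers and accompanying notes, the assembly was mm10 and the gene set GENCODE M21. The aligner, programs and strand setting were not given in the sources used here. Gene length and biotype came from the same annotation, and start-site windows from RefSeq.

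Expected counts were rounded and scaled with edgeR 4.0.16 (R 4.3.3, limma 3.58.1; mean count of 10 or more, prior count 2), which was checked on simulated data, with DESeq2 1.42.0 size factors as an alternative. The rest was done in Python 3.11.15 (matplotlib 3.10.9, pandas 2.3.3, numpy 2.4.6 and scipy 1.17.1). Shared sequence was counted as 100-base stretches of a gene's leading transcript found in transcripts of another gene. The floor of 3 counts and the 95% intervals cover counting error only.

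The genes and lists were chosen with earlier results of these data known. Named genes were all non-DnaJ members, the 15 highest, the ER, the mitochondrial and the undetected DnaJ genes, the 6 highest and 6 lowest ratios, and up to 4 partners per list with those under 1 TPM. Others named, such as those with shared sequence or transcript differences, were chosen after their values were seen. SDs measure the spread of 2 samples, and whether the animals were litter mates is not known.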

Additional observations from a re-analysis of the deposited data

How the results depend on the processing

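Each alternative changed 1 choice, except that TPM ratios also replaced the scaling. Of the alternative values, 62 were on the same side or within the spread of the reported ones, 19 moved beyond it and 1 reversed. These numbers do not measure robustness. Leaving out 1 of the 2 replicates returns the value of the other, which lies within the SD of a 2-library mean by construction. Keeping only list genes at 1 TPM or more changed nothing, because all of them were detected. The 62 also include the 65 genes detected at 5 TPM. The reversed value was the median log2 ratio of the chaperone genes, at -0.049 with spike-in scaling. In the other quantification the median of the muscle small heat shock genes was 109 TPM and of the general chaperones 133 TPM, the share of Hsp90ab1 87.2%, of Cryab with Hspb1 68.2%, the spread of the CCT subunits 2.42-fold and the median leading transcript share 52.9%. By expected counts those medians were 3497 and 4341 counts, the share of Unc45b 88.9%, of Hspa8 97.9%, of Cryab with Hspb1 43.8%, the leading transcript share 82.6% and the share not labelled protein-coding 5.25%. With TPM rescaled without spike-ins, tRNA entries and mitochondrially encoded genes the general median was 86.0 TPM. The number of genes over 0.5 in log2 ratio was 0 with spike-ins, 2 at a mean of at least 10 counts, 4 with no filter, and with TPM 2 at a pseudocount of 0.1 and 0 at 1. Detected genes numbered 77 at 0.5 TPM, 65 at 5 TPM, 78 at 10 counts and 77 in the other quantification, against 76. Leaving Cct6a out, chosen after seeing the data, gave a general median of 81.2 TPM. For the ratio of the medians of muscle small heat shock and general genes, leaving a replicate out only repeats the single-library values, 0.723 and 0.874. Its other alternatives gave 0.768 to 0.818. No paired analysis between groups was possible because the series has 1 group. Ratios between genes were taken within each library. The causes of these moves were not tested. Depth limits the genes under 100 counts.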
